A study of Homo sapiens with 28 samples.

Results

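The comparison described here set 3 embryonal carcinoma (EC) cell lines grown on feeder cells against the same lines grown on plastic, across all transcript clusters of a human exon array. The members are the 6 arrays of NTERA2, 2102Ep and 833KE in the 2 growth conditions, out of 14 arrays summarised at gene level, and they were taken from the labels. Feeders were mouse embryo fibroblasts inactivated with mitomycin C, and their medium was knock-out DMEM, with FGF at 4 ng/ml and Serum Replacement at 10%. Plastic stands for culture without feeders in high-glucose DMEM with 10% fetal calf serum (FCS). All cells, in both conditions, were sorted by flow cytometry for the surface antigen SSEA3 before RNA was taken. The 3 are established lines from germ cell tumours, with 1 array per line and condition, so the 3 lines are the replicates (n = 3 pairs). Feeder cells, base medium, serum, Serum Replacement and FGF changed together and cannot be told apart. Of the other arrays, 6 held embryonic stem (ES) cell lines on feeders in the same medium (H14, Shef5, Shef6, Shef3, H9 and Shef7) and are used as a background.

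EC cells are the malignant counterpart of ES cells and share with them a network of transcription factors that keeps cells undifferentiated. Feeder cells supply matrix and secreted factors, and serum carries lipids, retinoids and BMP activity that a defined replacement supplies in other amounts. Cells that run short of an amino acid, or that meet other stresses, raise translation of the transcription factor ATF4, which switches on amino acid transporters, enzymes that make serine and asparagine, and tRNA synthetases. Nodal, a ligand of the TGF-beta family, and FGF support the undifferentiated state of human pluripotent cells, while BMP and retinoic acid move them towards differentiation.

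All 6 arrays carried transcripts that mark pluripotent cells, though the POU5F1 probesets read low, as they did in the ES lines. The RNA-binding protein LIN28A read 12.37 to 12.99 on the log2 scale, and the DNA methyltransferase DNMT3B 10.75 to 11.87. NANOG and SOX2, read from exon probesets with 1 gene symbol because their gene-level clusters carry several, lay at 10.07 to 12 (2 probesets) and 9.64 to 10.70 (6 probesets). The pluripotency factor POU5F1, also read from such probesets (4), lay lower, at 4.41 to 5.79. The same probesets averaged 5.23 in the ES lines, and whether they report the POU5F1 transcript was not tested. The labels also give each array a running code, and this code is not spread evenly. NTERA2 and 2102Ep have earlier codes on feeders (11 and 13) than on plastic (25 and 19), while both 833KE arrays have later codes (27 on feeders, 21 on plastic). What the code counts is not given in the sources used here. The ES lines gave a rough measure of it that shares no array with the EC comparison. This is the mean of the 2 ES lines with earlier codes minus that of the 4 with later codes, called the ES code difference below. Each ES line was read on a single array, so in this measure the code and differences between ES lines cannot be told apart. Across clusters the ES code difference correlated with the feeder difference at r = 0.50 in NTERA2, 0.44 in 2102Ep and 0.13 in 833KE. These values are a description over clusters that share arrays. Results are therefore given with 833KE, whose 2 arrays have later codes, beside the other lines.

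In each line growth on feeders was accompanied by large differences at many transcripts, but those differences were shared only in part. At least 2-fold higher on feeders were 995 of 22011 clusters in NTERA2, 758 in 2102Ep and 742 in 833KE. At least 2-fold lower were 1226, 624 and 1086. The ES code difference reached this size in 424 clusters upwards and 526 downwards. The same direction in all 3 lines was found for 4534 clusters higher on feeders (20.6%) and 3975 lower (18.1%). Only 30 clusters (0.136%) were at least 2-fold higher in all 3 lines, and 65 (0.295%) at least 2-fold lower.

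The paired limma fit, with the line as a block and Benjamini-Hochberg adjustment over all clusters, called no cluster higher (0%) and none lower (0%) at an adjusted p of 0.05. The smallest adjusted p was 0.12. At an unadjusted p under 0.05 the fit gave 1545 clusters higher (7.02%) and 1731 lower (7.86%). The 3 feeder arrays all lay above the 3 plastic arrays in 1617 clusters (7.35%), and below them in 1514 (6.88%). An exact sign-flip test of a single cluster over 3 pairs cannot go below a two-sided p of 0.25. When the fit was limited to the 11006 brighter clusters, those with a mean level of at least 6.30, limma called 14 higher (0.127%) and 35 lower (0.318%), with mean differences of 1.16 to 2.83 in size. Of these 49 clusters, 45 differed at least 2-fold in 833KE, whose pair was itself part of the fit, so this is not a separate check. The ES code difference had the same sign in 43 and was at least 0.5 in that direction in 31, and no cluster was called once the code was a term of the fit (smallest adjusted p 0.0817 by limma).

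NTERA2 and 2102Ep resembled each other more than either resembled 833KE. Across all clusters their differences correlated at r = 0.38, against 0.19 for NTERA2 with 833KE and 0.19 for 2102Ep with 833KE. With the ES code difference held constant the 3 values drew together, to 0.21, 0.14 and 0.15. In the 10725 clusters whose ES code difference was under 0.25 in size they were 0.21, 0.16 and 0.15. Of 467 clusters that differed at least 2-fold in both NTERA2 and 2102Ep, 398 did so in the same direction. For NTERA2 with 833KE this was 315 of 434, and for 2102Ep with 833KE 227 of 332.

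**Figure D1:**
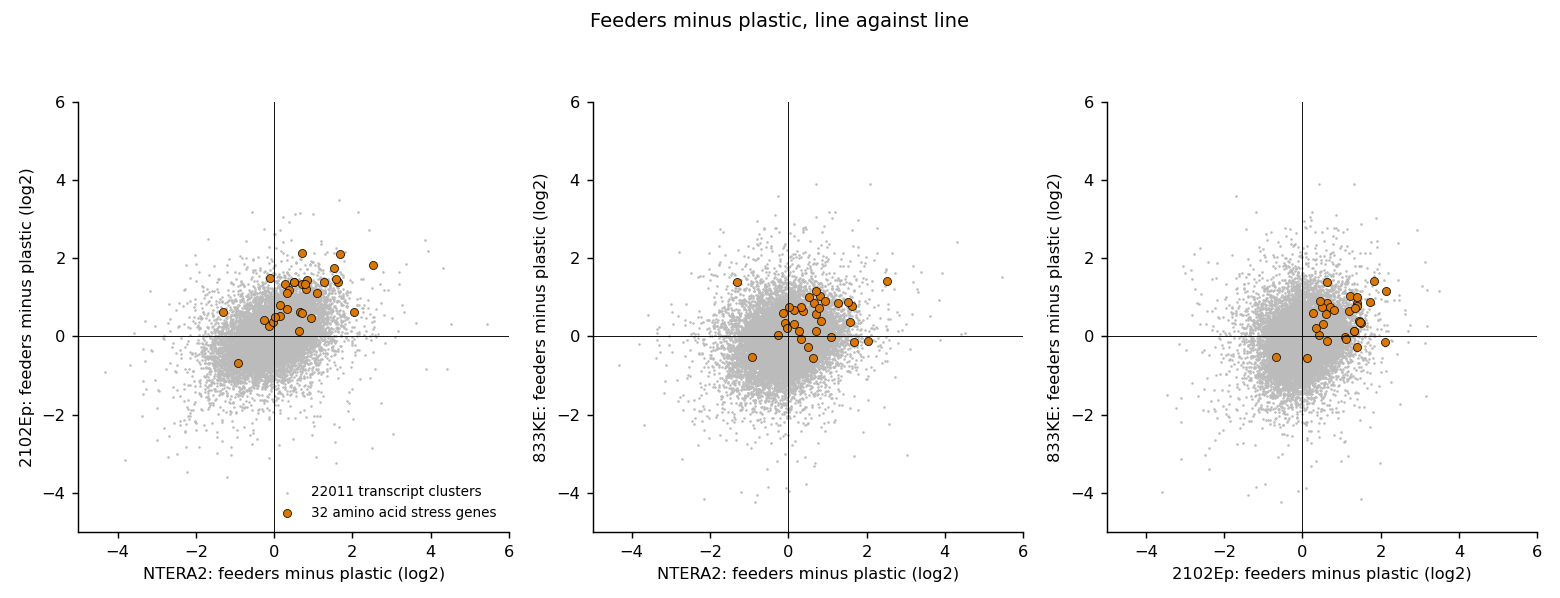
Feeders minus plastic (log2) in each line plotted against each other line, 1 grey point for each of 22011 clusters and orange for 32 genes of the amino acid stress response. The clouds are broad (r = 0.38, 0.19 and 0.19), and most orange points lie in the upper right of each panel.

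The 15 genes with the largest shared higher values on feeders included an amino acid transporter (SLC7A5), a matrix protein (TNC), proteins that bind or degrade retinoic acid (CRABP2, CYP26A1) and mitochondrial proteins (PCK2, SLC25A4, ND6, TUFM and PGS1). They were ranked by the smallest of their 3 differences, and values are given as log2 levels in the order NTERA2, 2102Ep, 833KE. SLC7A5, the light chain of a transporter for large neutral amino acids, read 11.39, 10.87 and 11.01 on feeders and 8.87, 9.05 and 9.59 on plastic. Every feeder array lay above every plastic array. The mean difference was 1.92 ± 0.56 (SD, n = 3), a 3.78-fold difference, with an adjusted p of 0.237 by limma over all clusters and 0.0193 over the brighter ones. Of its 21 exon probesets 20 were higher in all 3 lines, and the ES code difference was 0.54.

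TNC, the matrix glycoprotein tenascin-C, read 10.17, 6.93 and 7.64 on feeders against 8.24, 5.48 and 5.84 on plastic. The lines stood far apart in level, and each was higher on feeders by a similar amount, 1.73 ± 0.25 (SD, n = 3; adjusted p = 0.169 by limma, 0.0111 over brighter clusters). Of 38 TNC probesets 34 were higher in all 3 lines, and with the code in the fit the difference was 1.5. CRABP2, a carrier of retinoic acid, read 10.30, 8.38 and 7.08 on feeders and 8.71, 7.06 and 5.72 on plastic, a difference of 1.42 ± 0.15 (SD, n = 3). The ES code difference of CRABP2 was nearly as large, 1.15, and the fit with the code gave 0.74. PCK2, the mitochondrial enzyme that makes phosphoenolpyruvate, read 8.86, 9.16 and 7.66 on feeders and 6.72, 5.98 and 6.47 on plastic, highest above plastic in 2102Ep (3.18) and least in 833KE (1.19).

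CYP26A1, which degrades retinoic acid, read 5.81, 5.42 and 6.29 on feeders and 4.81, 4.19 and 5.11 on plastic. The groups did not overlap, the difference was 1.14 ± 0.12 (SD, n = 3; adjusted p = 0.237 by limma), and the ES code difference went the other way (-0.79). CER1, a nodal target whose secreted product blocks nodal and BMP, read 8.52, 7.99 and 5.83 on feeders and 4.66, 5.52 and 4.91 on plastic. Its differences fell off from 3.86 in NTERA2 to 2.47 in 2102Ep and 0.92 in 833KE, with an ES code difference of 0.24. On feeders CER1 still lay below the ES mean of 10.12 ± 0.55 (SD, n = 6), and so did CYP26A1 (ES mean 7.95 ± 0.64).

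The highest-ranked transcript, ZBTB8OS, part of the tRNA ligase complex, rested on weaker evidence. It read 5.02, 4.10 and 4.39 on feeders and 1.64, 2.26 and 2.76 on plastic, close to the bottom of the scale. Only 1 of its 10 probesets was higher in all 3 lines, and the mean difference of 2.29 was 0.44 in exon-level medians. The other 8 of the 15 highest were SLC25A4, GTF3C6, ND6, BTBD2, TFPI2, TUFM, SSNA1 and PGS1, with mean differences of 1.09 (PGS1) to 1.54 (ND6). SLC25A4 is the ADP/ATP carrier of heart and muscle mitochondria, TUFM is a mitochondrial translation factor, and ND6 is encoded in the mitochondrial genome. Their ES code differences were 1.40, 1.20 and 1.33, as large as or close to their mean feeder differences of 1.28, 1.22 and 1.54. In 833KE, whose 2 arrays have later codes, these genes differed by 1.18, 0.95 and 1.68. Just outside the 15 lay OBSL1, whose smallest difference was 0.91.

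The 15 genes with the largest shared lower values included the ERK phosphatase DUSP6, the DNA repair factor RIF1 and 5 zinc finger genes (ZNF675, ZNF480, ZNF654, ZNF208 and ZNF614). DUSP6, the phosphatase that FGF and ERK signalling switches on and that dampens ERK in turn, read 8.86, 7.21 and 6.18 on feeders and 9.98, 8.81 and 8.26 on plastic. The difference was -1.60 ± 0.48 (SD, n = 3; adjusted p = 0.237 by limma, 0.0355 over brighter clusters) and was largest in 833KE. The ES code difference of DUSP6 was -0.16, and the fit with the code gave -1.65. RIF1, which also acts in replication timing, read 8.59, 8.53 and 8.22 on feeders and 9.86, 9.66 and 9.69 on plastic. The groups did not overlap, the difference was -1.29 ± 0.17 (SD, n = 3; adjusted p = 0.0405 by limma over brighter clusters), and 42 of 45 probesets were lower in all 3 lines.

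CLEC4D, a C-type lectin known from myeloid cells, read 4.52, 7.45 and 6.49 on feeders and 6.91, 9.60 and 8.10 on plastic. Its ES code difference was close to 0 (-0.031), and its feeder difference was -2.05 ± 0.40 (SD, n = 3; adjusted p = 0.169 by limma, 0.00682 over brighter clusters). SLCO4C1, an organic anion transporter, read 5.49, 7.95 and 8.27 on feeders and 7.18, 9.81 and 9.79 on plastic, a difference of -1.69 ± 0.17 (SD, n = 3; adjusted p = 0.0109 by limma over brighter clusters). The zinc finger gene ZNF675 read 7.02, 7.30 and 6.27 on feeders and 9.49, 8.67 and 8.44 on plastic. Its groups did not overlap, and its ES code difference was -1.15.

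The other 10 of the 15 lowest were SOCS4, ZNF480, PRKAA1, LINC01559, SLC30A6, ZNF654, RAPGEF5, NADK, ZNF208 and ZNF614, with mean differences from -1.54 (SOCS4) to -1.09 (RAPGEF5). PRKAA1, a catalytic subunit of the energy sensor AMPK, and SLC30A6, a zinc transporter, had ES code differences of -1.29 and -1.22. Their mean feeder differences were -1.31 and -1.16, and in 833KE alone they differed by -1.15 and -1.27. NADK, which makes NADP, differed by -1.28 at gene level and by 0.067 in the median of its exon probesets. Among those 28 probesets 5 were higher and 3 lower in all 3 lines. LPAR4, at -0.97, lay just outside. In the fit of all 14 arrays with the code, 16 of the 30 named differences were smaller by over 1.5 times than in the paired fit. Among them were SSNA1 (0.42 from 1.15), TFPI2 (0.57 from 1.34) and ZNF208 (-0.31 from -1.39). All 30 kept their direction.

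**Figure D2:**
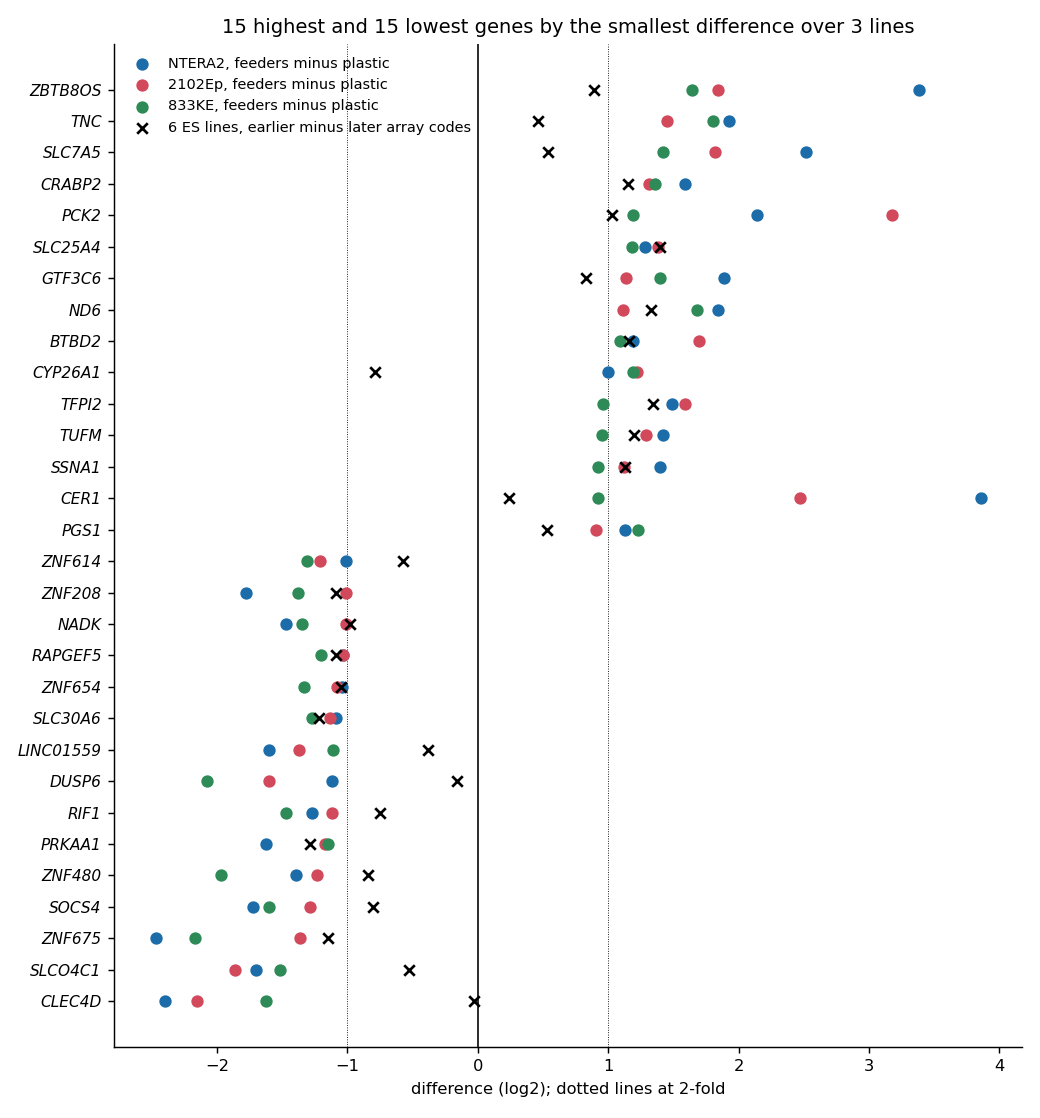
Feeders minus plastic (log2) for the 15 genes with the largest shared higher and the 15 with the largest shared lower differences, 1 point per line, and the ES code difference as a cross. CYP26A1, CER1, CLEC4D and DUSP6 stand well away from their crosses, while SLC25A4, PRKAA1 and SLC30A6 lie on or near them.

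Genes of the amino acid stress response, many of them direct targets of ATF4, were higher on feeders in most cases. Of 35 genes listed 32 were measured, and 20 of the 32 were higher on feeders in all 3 lines and 1 was lower, beside 21.8% and 18.2% of all 14220 genes. At an unadjusted p under 0.05 by limma 19 were higher and 1 lower, beside 978 and 1103 of all 14220 genes. In 16 the feeder arrays all lay above the plastic arrays, beside 1082 of all genes. The list's median difference was 0.65 in NTERA2, 1.15 in 2102Ep and 0.58 in 833KE, where the medians of all genes were 0.027, 0.059 and -0.0061. In 833KE alone 25 of the 32 were higher. Over the 6 ES lines the code difference had a median of 0.21, and with the code in the fit the list's median was 0.46. No member was called over all clusters, and over the brighter clusters SLC7A5 and SLC1A5 were called by limma. These were 2 of 30 brighter members, beside 23 of 7701 brighter genes.

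The transporter and enzyme genes of the list with the largest shared differences are given here. SLC1A5, the neutral amino acid transporter that carries glutamine, read 9.50, 9.56 and 9.09 on feeders and 7.98, 7.82 and 8.2 on plastic, a difference of 1.38 ± 0.44 (SD, n = 3; adjusted p = 0.0453 by limma over brighter clusters). SLC3A2, the heavy chain that pairs with SLC7A5 at the membrane, read 10.63, 10.62 and 10.26 against 9.0, 9.22 and 9.48. For both genes the groups did not overlap, and the step was smallest in 833KE (0.89 and 0.78). PSAT1, an enzyme of serine synthesis, read 11.61, 11.57 and 10.88 on feeders and 10.34, 10.18 and 10.03 on plastic. ASNS, asparagine synthetase, read 10.42, 10.29 and 10.39 on feeders and 9.61, 9.06 and 9.35 on plastic.

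ASNS had an ES code difference close to 0 (0.036). Its feeder difference was 1.03 ± 0.20 (SD, n = 3) and all 22 probesets were higher in all 3 lines. PHGDH, which opens the serine pathway, was higher by 0.52, 1.40 and 1.0. TRIB3, a pseudokinase that restrains ATF4, was higher by 0.71, 2.14 and 1.16. Not every target followed. CHAC1, which breaks down glutathione, read 8.27 and 8.29 on feeders in NTERA2 and 2102Ep against 6.57 and 6.18 on plastic, but 6.87 against 7.0 in 833KE. SLC38A2, a transporter of small neutral amino acids, was the only member lower in all 3 lines, at 10.30, 10.86 and 10.89 on feeders and 11.21, 11.54 and 11.41 on plastic. The cystine transporter SLC7A11 differed by 0.64, 0.13 and -0.55, and the ATF4 transcript itself by -0.13, 0.27 and 0.59. SLC7A5, SLC1A5, PSAT1 and ASNS were named by rule, and the other members after their values were seen.

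The promoters of these genes are shown because ATF4, with C/EBP partners, binds a short composite element. The motif TGATGNAA was searched on both strands (TTNCATCA on the other strand) in RefSeq promoter windows of GRCh38.p14 from 250 bases before to 50 after each start. It was present in 10 of the 28 list members with a window (35.7%), in 399 of 11392 measured genes (3.5%) and in 1270 of all 35116 windows (3.62%). The list was drawn from known ATF4 targets, so this share describes the list: 7 of 18 members that were higher in all 3 lines held the motif, and 3 of the 10 others. A match is a description of letters and not evidence of binding. A stretch of 100 bases before the start that holds a match is printed 5′ to 3′ on the gene's strand for 5 members higher in all 3 lines, with the motif in capitals. They are SLC1A5 (chr19:46784858-46784957, minus strand), ASNS (chr7:97872423-97872522, minus strand), GARS1, glycyl-tRNA synthetase (chr7:30594778-30594877, plus strand, motif on the other strand), ATF3, a stress-induced transcription factor (chr1:212565170-212565269, plus strand), and CEBPG, a C/EBP partner of ATF4 (chr19:33374013-33374112, plus strand).
SLC1A5: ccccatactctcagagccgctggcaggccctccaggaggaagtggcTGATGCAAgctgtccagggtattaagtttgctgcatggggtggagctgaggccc
ASNS: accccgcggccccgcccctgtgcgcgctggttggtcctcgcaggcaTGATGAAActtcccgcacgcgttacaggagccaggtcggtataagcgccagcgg
GARS1: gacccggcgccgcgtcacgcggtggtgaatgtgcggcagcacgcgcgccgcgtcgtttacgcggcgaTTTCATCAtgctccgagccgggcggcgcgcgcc
ATF3: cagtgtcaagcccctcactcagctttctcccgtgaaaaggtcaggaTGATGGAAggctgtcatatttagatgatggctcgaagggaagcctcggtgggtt
CEBPG: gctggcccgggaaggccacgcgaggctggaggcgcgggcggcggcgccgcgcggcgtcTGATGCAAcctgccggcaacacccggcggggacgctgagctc

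The letters at the N of the motif differed among them, and its distance from the start was 97 bases in SLC1A5, 68 in ASNS, 33 in GARS1, 191 in ATF3 and 42 in CEBPG. GARS1, whose feeder differences were 0.94, 0.46 and 0.91, carries it on the opposite strand from the others.

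**Figure D3:**
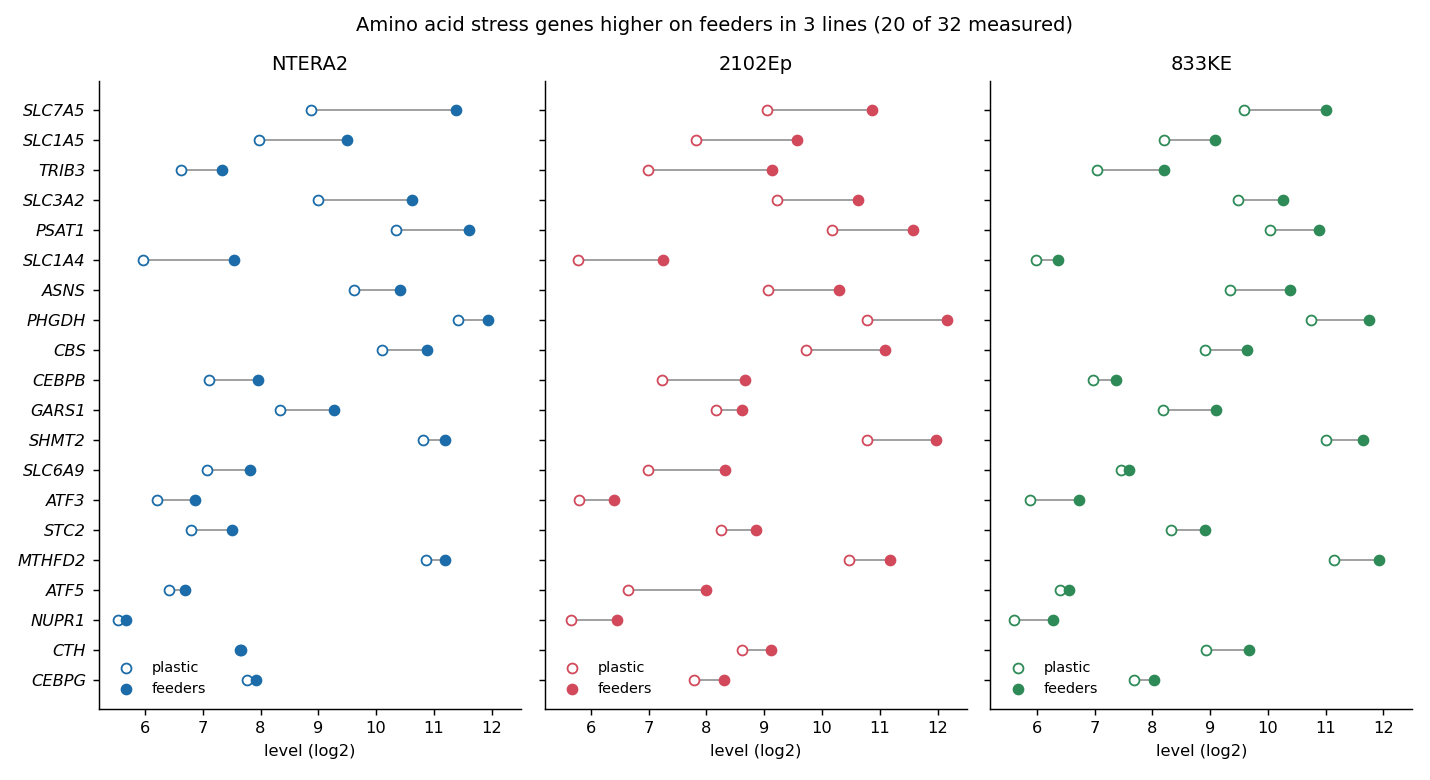
Log2 level of 20 genes of the amino acid stress list, with plastic as open and feeders as filled symbols for each line. Only list members higher on feeders in all 3 lines are drawn, so every filled symbol lies to the right by that choice. SLC38A2 and CHAC1 are not among them.

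Genes of the nodal pathway showed no shared shift as a list. Of 25 measured nodal pathway genes 6 were higher and 3 lower in all 3 lines, close to the shares of all genes, and the list's median differences were 0.26, 0.31 and -0.015. Its members with a shared direction lay on both sides. Beside CER1, the feedback antagonists LEFTY1 and LEFTY2, read from exon probesets, differed by 2.58, 1.84 and 0.46 and by 2.72, 1.79 and 0.41. Their ES code differences were 0.97 and 0.76, larger than their differences in 833KE. INHBE, an activin beta subunit that is also stress-induced, was higher by 1.43, 1.26 and 0.69. All these steps were smallest in 833KE. Receptor genes were among the lower ones: the type II receptor gene ACVR2A differed by -1.29, -0.85 and -0.69, and the type I receptor gene TGFBR1 read 8.48, 8.51 and 8.66 on feeders against 9.50, 9.48 and 9.32 on plastic. For the receptors the ES code differences were as large as the feeder differences (-1.27 and -0.94). NODAL itself differed by line, at 9.23, 8.61 and 8.28 on feeders and 3.78, 8.29 and 6.77 on plastic.

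Genes of the retinoic acid pathway were higher in 10 of 26 cases and lower in 2, with list medians of 0.27, 0.25 and 0.11 and an ES code median of 0.079. CRABP2 and CYP26A1 have been given above. HOXB2, a homeobox gene responsive to retinoic acid, read 6.81, 7.41 and 7.45 on feeders and 5.51, 6.63 and 5.99 on plastic, a difference of 1.18 ± 0.36 (SD, n = 3; adjusted p = 0.237 by limma). With the code in the fit the list's median was 0.072.

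Feedback genes of FGF and ERK signalling showed no shared upward shift in the medium with FGF. Of 24 measured, 3 were higher and 4 lower in all 3 lines, and the median differences were 0.13, -0.0058 and -0.18. DUSP6 was the member with the largest shared difference. ETV1, an ETS factor downstream of ERK, read 9.22, 9.62 and 9.04 on feeders and 10.76, 10.62 and 9.29 on plastic, and SPRY1, a Sprouty inhibitor, differed by -0.93, -0.89 and -0.15.

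The BMP targets ID1 and ID3, which block differentiation factors of the basic helix-loop-helix family, were lower on feeders although their ES code differences pointed upwards. ID1 read 7.96, 8.2 and 8.09 on feeders and 8.43, 8.6 and 8.69 on plastic. Its groups did not overlap, and the difference was -0.49 ± 0.094 (SD, n = 3; adjusted p = 0.292 by limma) beside an ES code difference of 0.41. ID3 read 7.86, 7.79 and 6.83 against 8.89, 8.36 and 7.86, with an ES code difference of 0.31. BAMBI, a BMP-induced decoy receptor, differed by -0.49, -0.61 and -0.34 with an ES code difference of 0.88. The ligand BMP7 was higher, at 8.25, 7.73 and 7.70 against 7.58, 7.22 and 6.92. Over the 24 measured BMP genes 6 were higher and 6 lower in all 3 lines.

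Factors linked to the naive, earlier pluripotent state were lower on feeders or not shared, and none was higher in all 3 lines. Of 15 measured 5 were lower in all 3 lines, the medians were -0.068, -0.32 and -0.51, and the ES code median was 0.32. TFCP2L1, a transcription factor of that state, read 6.82, 8.73 and 8.41 on feeders and 7.65, 9.25 and 9.76 on plastic, a difference of -0.90 ± 0.42 (SD, n = 3; adjusted p = 0.25 by limma). KLF4, one of the reprogramming factors, differed by -0.44, -0.66 and -1.04, and PRDM14, which represses differentiation genes, by -0.77, -0.27 and -0.58. All 3 genes in NTERA2 lay below both other lines, whichever condition was read.

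Of 21 general pluripotency factors measured, 2 were higher and 6 lower in all 3 lines, with medians of -0.21, 0.040 and -0.24. L1TD1, an RNA-binding protein of undifferentiated cells, read 9.48, 9.32 and 9.62 on feeders and 10.05, 10.22 and 10.81 on plastic, without overlap, while its ES code difference was 0.60. SALL4, a zinc finger factor of the pluripotency network, read 9.94, 10.20 and 10.45 against 10.79, 10.74 and 11.01, also without overlap. DPPA4 differed by -0.76, -0.56 and -0.45. GAL, which encodes the neuropeptide galanin, went the other way, at 11.98, 9.81 and 10.53 against 8.67, 9.19 and 9.39, and its ES code difference was 1.74. By probesets NANOG differed by -0.41, -0.82 and -0.056 and SOX2 by -0.33, -0.49 and -0.015. POU5F1, at probeset levels that were low in the ES lines too, differed by -0.20, 1.31 and -0.79. OTX2, a factor of the later, primed state, differed by -1.28, -0.60 and -1.03, with an ES code difference of -1.56.

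**Figure D4:**
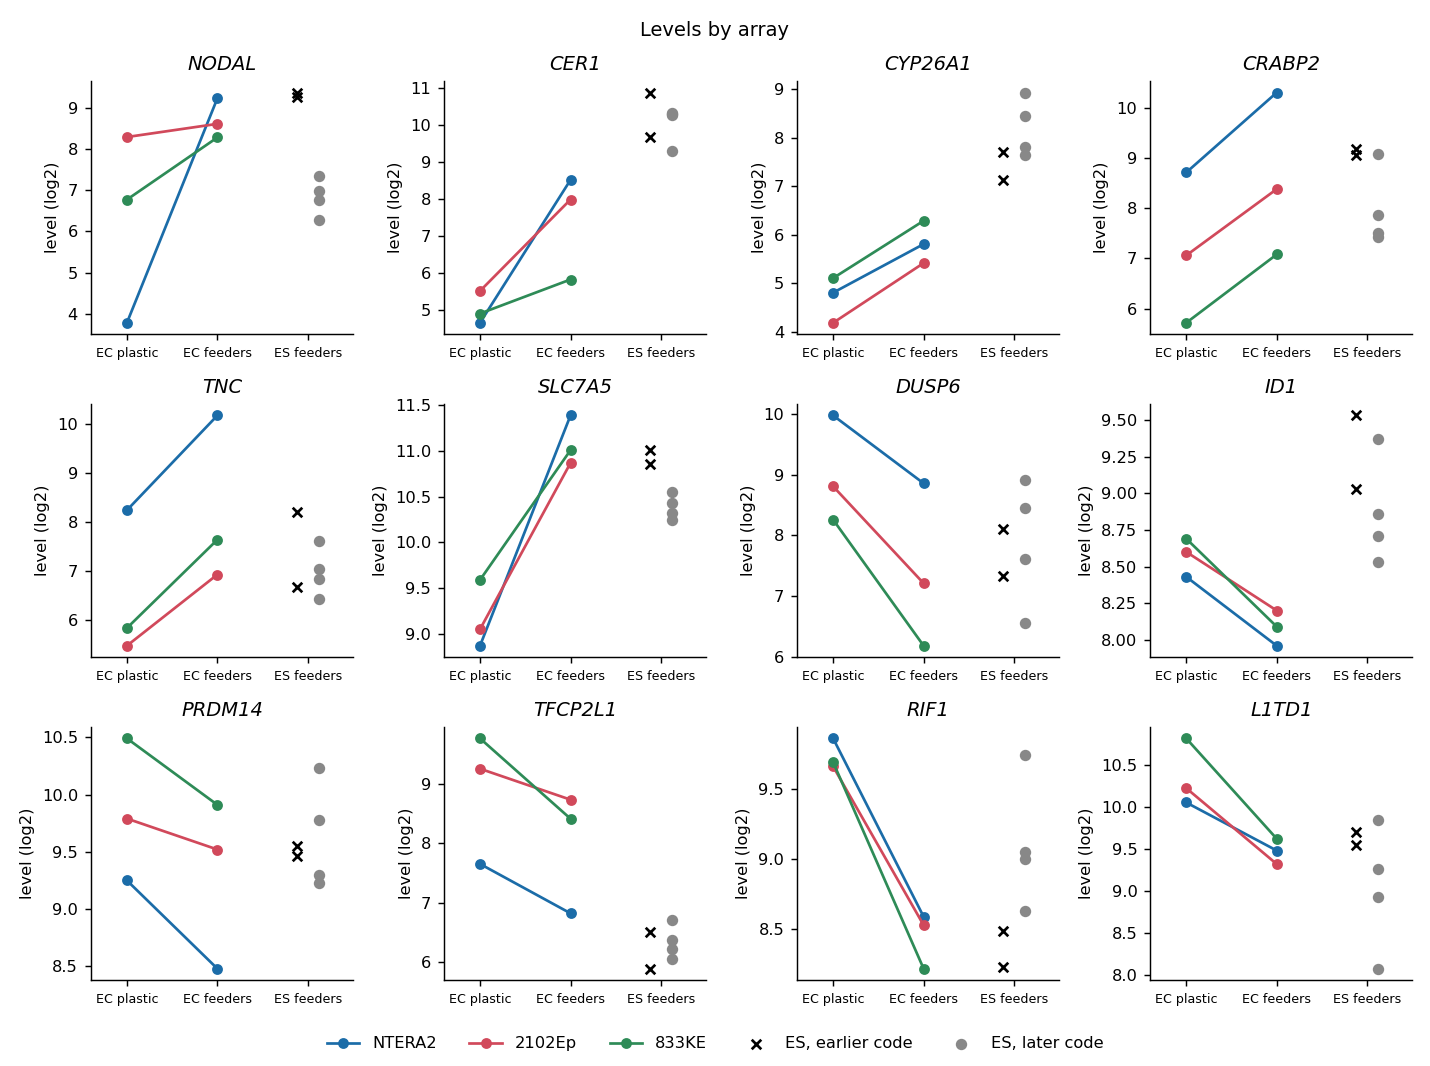
Log2 level of 12 genes in each array: the 3 EC lines on plastic, the same lines on feeders, and the 6 ES lines on feeders. RIF1, ID1 and L1TD1 on feeders lie below all plastic arrays of the 3 lines, and CER1 and CYP26A1 lie between EC cells on plastic and the ES lines.

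Fibroblast and matrix genes were higher on feeders in 19 of 33 cases and lower in 1, with medians of 0.54, 0.40 and 0.27. VIM, the intermediate filament vimentin, read 10.66, 7.69 and 8.69 on feeders and 9.02, 6.43 and 7.87 on plastic, with an ES code difference of 0.063. FBN1, fibrillin, was higher by 0.82, 1.02 and 0.67 with an ES code difference of -0.50. COL4A1 and COL4A2, chains of basement membrane collagen, were higher by 1.21, 1.17 and 0.82 and by 1.06, 1.12 and 0.88. The list's ES code median was 0.44, and with the code in the fit its median was 0.14.

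The feeder layer is itself made of fibroblasts, of mouse origin, so markers of that cell type were read in the same arrays. Of 21 measured fibroblast markers (23 listed) 14 were higher in all 3 lines and 1 was lower, with medians of 0.28, 0.27 and 0.29 and an ES code median of 0.44. Their summed level, on the log2 scale, was 12.80, 12.27 and 11.99 on feeders and 11.85, 11.89 and 12.21 on plastic, higher in NTERA2 and 2102Ep and lower in 833KE. Several defining fibroblast markers lay at the bottom of the scale in all 6 arrays: DCN at 2.09 to 2.45, LUM at 1.45 to 2.0, POSTN at 2.76 to 3.10 and FAP at 1.92 to 2.17. In 833KE 18 of the 21 markers were higher, and the abundant matrix protein SPARC was lower there, at 10.97, 11.13 and 10.05 on feeders and 9.66, 10.77 and 11.18 on plastic in the 3 lines. The pluripotent marker list went the other way: of 5 measured members none was higher and 3 (DPPA4, L1TD1 and SALL4) were lower in all 3 lines, with medians of -0.57, -0.54 and -0.56 and an ES code median of -0.065. How well these human probes read mouse RNA was not tested, and in bulk RNA a change in the share of a cell type and a change in RNA per cell cannot be told apart.

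Contractile and serum response genes were higher in all 3 lines in 8 of 26 cases and lower in none, with medians of 0.34, 0.29 and 0.28 beside an ES code median of 0.34. TPM2, a tropomyosin, read 8.35, 7.73 and 6.90 on feeders and 7.17, 6.52 and 6.37 on plastic. TAGLN, an actin-binding protein of smooth muscle read from exon probesets, differed by 3.65, 1.88 and 1.29, and its ES code difference was 1.94. Interferon response and antigen presentation genes were higher in 11 of 26 cases and lower in none, with medians of 0.24, 0.29 and 0.23 and an ES code median of 0.23. TAP1, which carries peptides to class I molecules, differed by 0.25, 1.52 and 0.59, and the class I gene HLA-E by 0.23, 0.85 and 0.43. For both lists the shift in 833KE was close to that in the other lines, and close to the ES code difference as well.

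**Figure D5:**
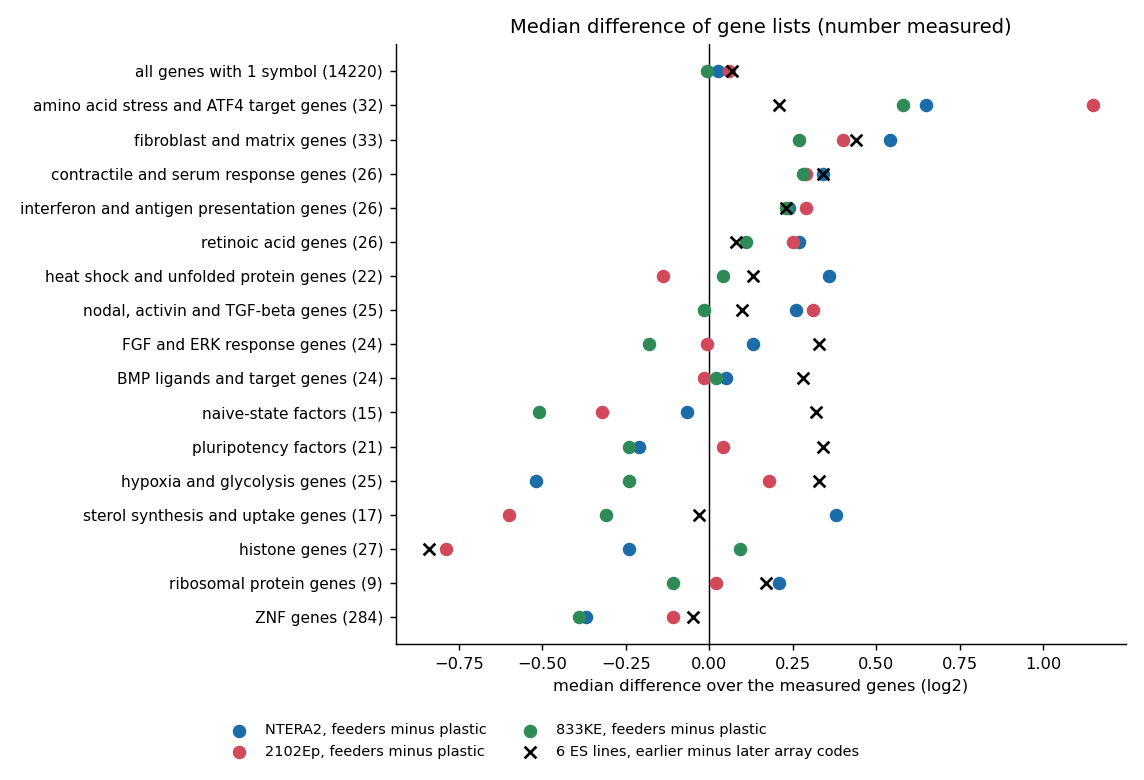
Median feeders-minus-plastic difference (log2) of all genes and of 16 gene lists in each line, with the ES code difference as a cross. The amino acid stress list lies at 0.58 to 1.15 in the 3 lines, beyond its cross at 0.21, and the sterol list lies on opposite sides of 0 in NTERA2 and the other lines.

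Zinc finger genes of the ZNF family, most of them repressors that silence retroelements and other genes, were mostly lower on feeders. Of 284 measured 139 were lower and 35 higher in all 3 lines, beside 18.2% and 21.8% of all genes. At an unadjusted p under 0.05 by limma 87 were lower and 9 higher, beside 1103 and 978 of all 14220 genes. The medians were -0.37 in NTERA2, -0.11 in 2102Ep and -0.39 in 833KE, while the ES code median was -0.049. Over brighter clusters ZNF675, ZNF480, ZNF208 and ZNF614 were called by limma, 4 of 175 brighter members, beside 23 of 7701 brighter genes. With the code in the fit the family's median was -0.31. ZNF symbols were grouped after earlier results of these data had been seen, and paralogs can share probes.

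An unnamed run of 11 neighbouring cluster identifiers was lower on feeders throughout. It was picked as the longest run of unnamed neighbours among the clusters called over the brighter clusters by limma. That all 11 were called follows from this choice, and all 49 brighter calls had the same direction in the 3 lines. The 11 are part of the 35 lower calls there. Their medians were -2.16, -2.03 and -1.87, with an ES code median of -0.32. Cluster 3725815 read 9.14, 9.97 and 9.78 on feeders and 11.30, 12 and 12.16 on plastic (adjusted p = 0.00486 by limma over brighter clusters), and cluster 3725822 differed by -2.81, -2.33 and -1.66. The annotation used here gives these clusters no gene symbol.

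Lipid and hypoxia genes separated the lines. Of 17 sterol synthesis genes 15 were higher on feeders in NTERA2, but only 3 in 2102Ep and 6 in 833KE, and the medians were 0.38, -0.60 and -0.31. HMGCS1, which makes the precursor of mevalonate, read 10.27 on feeders and 9.51 on plastic in NTERA2, 7.85 and 9.73 in 2102Ep, and 8.0 and 9.74 in 833KE. IDI1 (0.75, -0.76, -1.02), SQLE (0.91, -0.69, -0.44) and DHCR7 (1.20, -0.29, -0.47), which act at later steps, divided the lines in the same way. The ES code median of the list was -0.032. These members were chosen after their values were seen, and with 1 array per line and condition the difference between lines has no test.

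Hypoxia and glycolysis genes were lower in all 3 lines in 7 of 25 cases and higher in 3, with medians of -0.52, 0.18 and -0.24. The hexokinases went opposite ways: HK2, the inducible form, read 8.0, 8.05 and 7.45 on feeders and 9.43, 8.49 and 8.45 on plastic, while HK1, the constitutive form, was higher by 0.37, 0.86 and 0.39. HK2 had an ES code difference of -0.27.

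Each line also had large differences of its own. In NTERA2 the nodal ligand NODAL (5.45), the mesendoderm factor MIXL1 (4.51) and the pluripotency factor ZFP42, also called REX1 (4.42), were far higher on feeders, followed by CER1 and ZBTB8OS. MIXL1 read 11.21 on feeders and 6.70 on plastic in NTERA2 but 7.51 and 7.18 in 2102Ep and 7.30 and 7.21 in 833KE. ZFP42 read 8.63 on feeders and 4.22 on plastic in NTERA2, where the other lines stood at 10.32 and 11.16 and at 11.32 and 11.26. NTERA2 on plastic was thus the only one of the 6 arrays with ZFP42 below 8.63. NODAL and MIXL1 had ES code differences of 2.48 and 2.13. Lowest on feeders in NTERA2 were DYNAP (-3.35), BHLHE41 (-3.31), the tubulin gene TUBA1B (-2.98, with an ES code difference of -1.93), SELENOP, a selenium carrier (-2.81), and PTPRZ1, a receptor phosphatase, which read 7.18 on feeders and 10.32 on plastic.

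In 2102Ep the highest after PCK2 were LOC100134868 (3.15), IL20RB, a cytokine receptor subunit (3.14, with 0.53 in NTERA2 and 1.91 in 833KE), ULBP1, a stress ligand of natural killer cells (3.13), and RPL35, a ribosomal protein gene (3.06) of whose 6 probesets 1 was higher in all 3 lines. Lowest were RGS4, a regulator of G protein signalling (-2.52, with -0.62 and -1.33 in the others), the neuropeptide receptor gene NPY1R (-2.21), CLEC4D, the protocadherin gene PCDHB12 (-2.07) and FBXL13 (-2.05). In 833KE the highest were WLS, the carrier that Wnt ligands need for secretion, HAPLN1, a matrix link protein (3.58), KITLG, the ligand of the receptor KIT, at 7.04 on feeders and 4.08 on plastic, the cancer-testis antigen gene MAGEA4 (2.79) and DDX60, an interferon-induced helicase (2.77). WLS read 9.74 on feeders and 5.85 on plastic in 833KE, was 2.09 higher in NTERA2 and 0.42 higher in 2102Ep, and had an ES code difference of -0.29. Of 21 WLS probesets 17 were higher in all 3 lines.

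The lowest differences in 833KE were in BTLA, an inhibitory receptor of lymphocytes (-4.05), DCAF4L2 (-3.94), KLF17 (-3.86), the histone gene H2AC12 (-3.85) and NLRP7 (-3.32). BTLA read 4.18 on feeders and 8.23 on plastic in 833KE and differed by -0.80 and -1.38 in NTERA2 and 2102Ep. KLF17, a transcription factor of the early human embryo, read 5.15 on feeders and 9.01 on plastic in 833KE and differed by -0.061 and 0.10 in NTERA2 and 2102Ep. DCAF4L2 read 4.55 and 8.49 in 833KE and differed by 0.031 and -0.11 in the others. NLRP7, a maternal-effect gene, read 7.91 on feeders and 11.23 on plastic. Both 833KE arrays have later codes. Of clusters at least 4-fold different in 1 line and under 0.5 (log2) in both others there were 39 in NTERA2, 11 in 2102Ep and 34 in 833KE.

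EC arrays on feeders were not uniformly closer to the ES lines, which were grown the same way. Over all clusters NTERA2 correlated with the mean of the 4 later-coded ES lines at 0.958 on feeders and 0.971 on plastic, and with the 2 earlier-coded ES lines at 0.970 and 0.958. In 2102Ep these values were 0.955 and 0.963 for later-coded and 0.972 and 0.961 for earlier-coded ES lines. In both lines the feeder array was thus nearer to the ES lines of like code. 833KE, with later codes in both conditions, correlated at 0.962 on feeders and 0.958 on plastic with the later-coded ES lines, and at 0.964 and 0.954 with the earlier-coded ones. These are correlations over clusters and carry no test.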

How the data were processed

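Expression was read with Affymetrix exon arrays of the Human Exon 1.0 ST design. The deposited values are log2 values, made by the authors with RMA and Affymetrix Expression Console, with limma also named, all without versions, per the submitters' processing notes. Log base 2 was inferred from how far the values reach. Array medians lay between 6.20 and 6.39. Precision is limited by the small number of arrays. No detection value was used, so signal over background is unknown. Each of 22011 transcript clusters entered as deposited: 14432 have 1 symbol in the platform annotation, 2408 several and 5171 none, and only the first kind is named (14220 genes). Of 287329 exon probesets those with 1 symbol served as a check, as the median over each gene's probesets.

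Differences are feeders minus plastic. They were tested with limma 3.58.1 in R 4.3.3 (a linear model with moderated variances, line as a block, 2 residual degrees of freedom, Benjamini-Hochberg over all clusters, threshold 0.05), a script tested on simulated data. The pairs are arrays of the same cell line. After removing each condition's mean, each line's feeder and plastic arrays correlated at 0.51 (NTERA2), 0.41 (2102Ep) and 0.34 (833KE), and arrays of different lines below 0, which is partly built in. The p-values measure the spread between lines, since no culture was repeated.

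Array codes up to 13 are called earlier and from 17 later. Named are the 15 genes highest and the 15 lowest by the smallest of the 3 differences, the 5 highest and lowest of each line, the 8 with the largest opposite differences, and up to 4 members of each list. Other genes were chosen after their values were seen. The members, the 33 lists and the motif were chosen with earlier results of these data known. Alternatives covered normalisation, dim clusters, exon-level medians, the block, all 14 arrays, the code (also over all 14 arrays) and leaving out a line. Figures were drawn with matplotlib 3.10.9.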

Additional observations from a re-analysis of the deposited data

Results flagged for a closer look

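No sample stood apart among the 6 ES lines in any of 30 genes examined. In 8 genes, chosen as those with the largest opposite differences, feeders minus plastic ran opposite ways in 2 lines. The difference between lines was not tested for any of them, because each line has 1 array per condition.

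BLOC1S1, a subunit of a complex of lysosome biogenesis, differed by 1.91 in NTERA2 and -2.43 in 833KE. B4GALT1, a galactosyltransferase, differed by 1.85 in 2102Ep and -2.0 in NTERA2. TTN, the giant muscle protein titin, differed by 1.80 in 2102Ep and -1.94 in 833KE. HAPLN1, the matrix link protein, differed by 3.58 in 833KE and -1.70 in 2102Ep. IDO1, which degrades tryptophan, differed by 1.54 in 833KE and -1.83 in NTERA2. LMO3, a transcriptional cofactor, differed by 1.53 in 833KE and -1.51 in NTERA2. LOC100134868 differed by 3.15 in 2102Ep and -1.51 in 833KE. NPY1R, a neuropeptide Y receptor, differed by 1.49 in 833KE and -2.21 in 2102Ep. Several of these genes read low over the 6 arrays: B4GALT1 at 2.38 to 4.69, LOC100134868 at 2.57 to 5.80, TTN at 2.78 to 6.51 and BLOC1S1 at 3.01 to 6.62. HAPLN1 (4.43 to 9.73) and LMO3 (3.41 to 9.18) reached higher levels.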

How the results depend on the processing

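No cluster was called in either direction by the paired limma fit on all clusters with quantile normalisation, median centring or exon-level medians. Nor was any called with trended and robust variances or with 1 line left out. The fit with the code as a term, over all 14 arrays with the line as a random block, also called none. Without the replicate block 0 clusters were called higher and 1 lower. With all 14 arrays and the line as a random block the calls were 25 higher and 37 lower. Leaving out the dimmest clusters, those under the 25th percentile (16508 tested) gave 11 lower, and the 11006 brighter clusters gave 14 higher and 35 lower. Among brighter clusters exon-level medians gave 13 and 26, quantile normalisation 5 and 18, and centring 12 and 39. Leaving out a line there gave 9 to 482 higher and 24 to 412 lower (70 and 125 without NTERA2, 9 and 24 without 2102Ep, 482 and 412 without 833KE). The cause was not tested. Without the block, or with the code, brighter clusters gave 0 calls (smallest adjusted p by limma 0.287 and 0.0817; 1074 and 1394 clusters at an unadjusted p under 0.05). Of the 49 brighter calls 23 were shared with quantile normalisation, 47 with centring and 15 with the fit of all 14 arrays. The block is the line itself, and none of the 49 brighter calls was made without it.

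Clusters with the same direction in all lines numbered 2596 higher and 2503 lower among brighter clusters, and 6492 to 7616 higher and 5760 to 6502 lower with a line left out, when only 2 lines need to match. Clusters 2-fold different in all lines numbered 12 higher and 35 lower among brighter clusters, and 19 and 27 with exon-level medians. With a line left out they numbered 95 to 189 higher and 132 to 209 lower. Subtracting the ES code difference from NTERA2 and 2102Ep gave 34 higher and 42 lower, beside 30 and 65 without it. The correlation of NTERA2 with 2102Ep was 0.58 in brighter clusters and 0.21 with the ES code difference held constant.

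Of gene list values under alternatives 244 moved by less than their spread between lines, 58 by more, and 3 reversed: the insulin, IGF and FOXO list (-0.079) and the globo-series list (-0.033) in brighter clusters, and the endoderm list with the code as a term (-0.035). Of 264 values for the 30 named genes, 22 became called, 1 reversed (NADK at exon level, 0.067), and 22 differed by over 1.5 times. Of these last, 16 were with the code as a term, 4 with exon-level medians (ZBTB8OS 0.44, GTF3C6 0.97, ZNF654 -0.36, NADK) and 2 in 833KE alone (PCK2 1.19, CER1 0.92).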

Other observations

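Of 30 cell cycle and replication genes 6 were higher and 5 lower in all 3 lines, and of 14 D cyclins, CDKs and inhibitors 3 and 1, beside 21.8% and 18.2% of all genes. The genes that follow were chosen after their values were seen. CDKN1B, the cyclin-dependent kinase inhibitor p27, read 8.42, 8.36 and 8.12 on feeders and 7.64, 7.92 and 7.13 on plastic in NTERA2, 2102Ep and 833KE, without overlap and with an ES code difference of 0.14. RB1, the retinoblastoma gene, differed by -1.51, -0.66 and -1.04, beside an ES code difference of -1.0. TP53I3, a p53 target, read 8.11, 8.61 and 8.06 against 7.37, 7.55 and 7.13. KIT, the receptor of the ligand that was higher in 833KE, differed by -2.10, -0.46 and -0.68. None was called by limma over all clusters (adjusted p 0.256 for CDKN1B, 0.239 for RB1, 0.237 for TP53I3 and 0.293 for KIT).

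SSEA3, the antigen used for sorting, is a globo-series glycolipid. Of 12 genes of its synthesis 3 were higher and 2 lower in all 3 lines. B3GALNT1, which makes globoside, read 7.22, 5.32 and 5.51 on feeders and 6.02, 4.66 and 5.20 on plastic, with an ES code difference of -0.53. GPX1, an antioxidant selenoenzyme, differed by 1.24, 0.55 and 0.56, with an ES code difference of -0.15. Histone genes were lower in all 3 lines in 6 of 27 cases and higher in none, with medians of -0.24, -0.79 and 0.093 and an ES code median of -0.84.

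Across 14218 genes the rank correlation of genomic span with feeders minus plastic was -0.22 in NTERA2, -0.091 in 2102Ep and -0.17 in 833KE, and -0.27 with the ES code difference, weak relations in which longer genes tended to be lower. The GC share of the promoter, known for 11392 genes, gave 0.089, 0.19 and -0.014, and 0.14 with the ES code difference. Their part in the gene results was not tested. All correlations are over genes, which are not independent.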
